A study of Rattus norvegicus with 15 samples.

Results

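The 8 genes described here encode enzymes that turn cholesterol into bile acids and attach them to taurine or glycine. They were taken by symbol from the 32623 genes of the liver count table, and all 8 were present and abundant enough to be tested. Cyp7a1, Cyp8b1, Hsd3b7 and Akr1d1 stand for the classic pathway, Cyp27a1 and Cyp7b1 for the alternative pathway, and Slc27a5 and Baat for conjugation.

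Liver mRNA of male, age-matched Wistar rats was sequenced to ask which genes change in cirrhosis and which of them respond to blockade of the mineralocorticoid receptor. The control group received no treatment, that is neither CCl4 nor phenobarbital. The cirrhosis group inhaled CCl4, a toxin of hepatocytes, for 12 weeks and drank water with 0.35 g/L phenobarbital, an inducer of liver enzymes. The cirrhosis & eplerenone group had the same 12 weeks and, from week 8 on, 100 mg/kg eplerenone, a mineralocorticoid receptor antagonist, by mouth in hazelnut spread. Livers were taken 7 to 10 days after the last CCl4. Effects of CCl4 and of phenobarbital cannot be told apart here, and whether the other groups ate the spread is not given in the sources used here. The rats sequenced had been picked for how well cirrhosis or treatment had taken. The labels list 5 samples a group, of which 4 control, 5 cirrhosis and 5 cirrhosis & eplerenone livers were analysed. Control replicate 1 had no column of counts and was not analysed here. The study states that it left out 1 control, which principal component analysis set apart from the other 4. The control ranges below rest on the 4 livers left.

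Bile acid synthesis takes place in hepatocytes. In the classic pathway Cyp7a1 catalyses the first and rate-limiting hydroxylation of cholesterol, Hsd3b7 and Akr1d1 alter the sterol ring, and Cyp8b1 decides how much cholic acid is made relative to less hydroxylated bile acids. In the alternative pathway mitochondrial Cyp27a1 oxidises the side chain and Cyp7b1 hydroxylates the resulting oxysterols. Slc27a5 joins bile acids to coenzyme A and Baat passes them on to taurine or glycine, which makes them soluble enough to be secreted into bile. Bile acids returning to the liver repress Cyp7a1 and Cyp8b1 through the receptor FXR (gene Nr1h4) and its target SHP (gene Nr0b2), and Cyp7a1 follows the daily clock.

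The libraries held 16157491 to 21574767 counted reads, and 3 reads corresponded to 0.121 to 0.191 FPM (fragments per 1000000 of the library size, scaled with edgeR's TMM method). Livers were whole tissue, so fewer hepatocytes and less RNA per hepatocyte cannot be told apart. The summed level of 9 measured hepatocyte markers lay between 192916 and 220835 FPM for control, between 149339 and 207000 FPM for cirrhosis and between 116691 and 212714 FPM for cirrhosis & eplerenone, and none of the 9 passed the test (0 to 3 with 1 liver left out). The sum of 7 cholangiocyte markers was 14.8 to 24.5 FPM, 47.8 to 148 FPM and 47.9 to 102 FPM in the same order, and all 7 were higher in cirrhosis than in control. The sum of 7 stellate cell and myofibroblast markers was 144 to 242 FPM, 260 to 538 FPM and 390 to 532 FPM, and 5 of the 7 were higher in cirrhosis (3 without control replicate 2 or 5, 6 without cirrhosis replicate 5). The sixth and seventh were not called, Lrat with a log2 fold change of -1.09. Col3a1 made up most of this sum, with group means of 125, 216 and 293 FPM. For cirrhosis & eplerenone vs cirrhosis 5 of the 7 had a log2 fold change below 0 and 2, Col3a1 and Lrat, above 0, none called. Of 5 lymphocyte markers 3 were higher in cirrhosis, with a summed level of 5.2 to 13.8 FPM in the controls, 16.5 to 23.4 FPM with cirrhosis and 12.8 to 29.1 FPM with eplerenone as well. Of 6 macrophage markers 1, Cd163, was lower, at sums of 187 to 327, 85.1 to 307 and 136 to 376 FPM, and of 4 endothelial markers 1, Kdr, was lower, at sums of 135 to 168, 49.5 to 163 and 109 to 151 FPM. None of these markers was at 0 in any group, and their part in the results below was not tested.

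Of the 8 enzymes, only Baat was significantly different between cirrhosis and control, with a lower level in cirrhosis. A gene was called when its false discovery rate over all genes tested was below 0.05 in both edgeR and DESeq2, and log2 fold changes (log2FC), standard errors (SE) and adjusted p-values below are edgeR's. By this rule 2802 of 13628 protein coding genes were called, which is 20.6%, so 1 called enzyme of 8 is no more than the background. Cyp8b1 and Baat were the 2 enzymes whose cirrhosis and control values did not overlap, against 20.5% of protein coding genes. The fitted log2FC was below 0 for 7 enzymes and above 0 for Cyp7a1. The median log2FC over the 8 was -0.75, against -0.01 for all protein coding genes and -0.52 for the 9 hepatocyte markers. Of these markers 6 were below 0 and 3 above. By DESeq2 alone Ttr, Apob, Apoh and Fgb were lower and Tf higher at an adjusted p below 0.05. At an unadjusted edgeR p below 0.05 there were 3 enzymes, Hsd3b7, Slc27a5 and Baat.

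No enzyme was called between cirrhosis & eplerenone and cirrhosis, where 0.0147% of protein coding genes (2 of 13628) were called. The groups overlapped for every enzyme, while 0.947% of protein coding genes did not overlap. Neither tool called an enzyme, and at an unadjusted p below 0.05 there was none in edgeR and 1 in DESeq2, Cyp7b1. The median log2FC was 0.31 against 0.01 for all protein coding genes, with 6 enzymes above 0 and Cyp7b1 and Baat below. Between cirrhosis & eplerenone and control no enzyme was called by both tools, against 5.33% of protein coding genes, and Baat alone did not overlap, against 11.1%. DESeq2 by itself called Cyp7b1 and Baat there, and the edgeR count at an unadjusted p below 0.05 was 3. The comparisons share their control or cirrhosis livers.

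**Figure D1:**
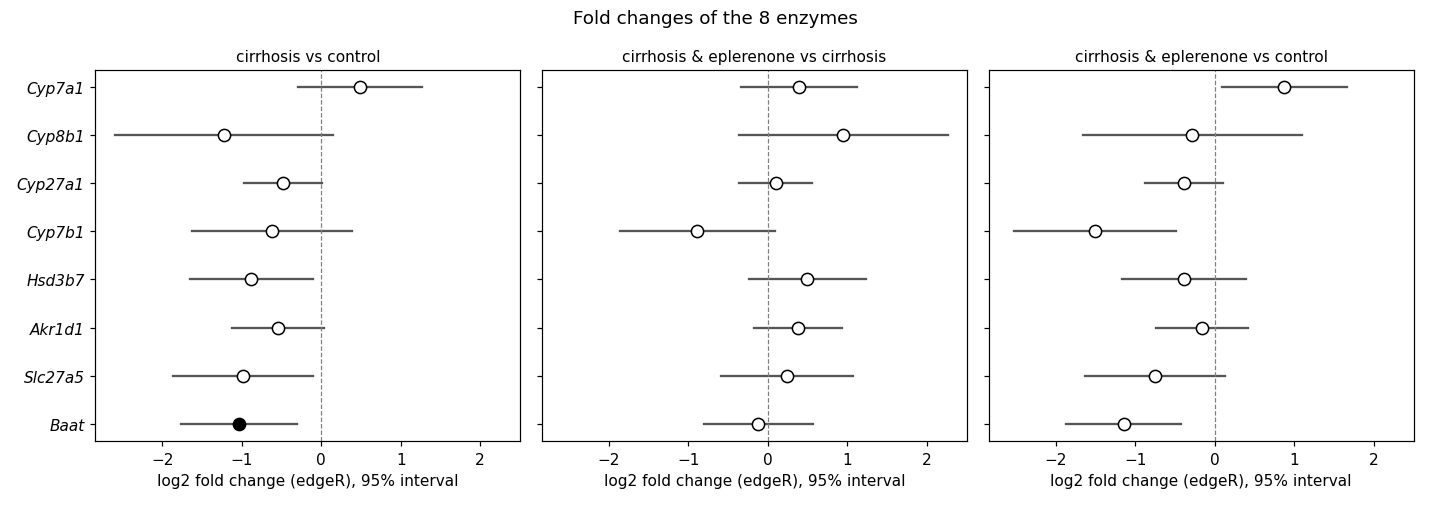
Log2 fold changes of the 8 enzymes (rows) from edgeR in the 3 comparisons, with 95% intervals as lines. The filled point was called by both tools, open points were not. Baat in cirrhosis vs control is the one filled point at -1.03, and Cyp7a1 is the enzyme above 0 in all 3 panels.

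Cyp7a1 (ENSRNOG00000009488, chromosome 5), the rate-limiting enzyme, was the one enzyme with a higher mean in cirrhosis than in control, a difference that did not pass the test. Its level was 44.9, 110, 84.9 and 56.1 FPM in control replicates 2 to 5, and 155, 72.1, 102, 92.6 and 97.5 FPM in cirrhosis replicates 1 to 5. In cirrhosis & eplerenone replicates 1 to 5 it was 210, 197, 129, 86.6 and 55.7 FPM. The 3 groups overlapped, and the 2 highest values of all 14 livers were cirrhosis & eplerenone replicates 1 and 2. The log2FC was 0.49 (SE 0.37, 95% interval -0.29 to 1.27, adjusted p = 0.339) for cirrhosis vs control and 0.39 (SE 0.34, -0.34 to 1.12, adjusted p = 0.569) for cirrhosis & eplerenone vs cirrhosis. Against control, cirrhosis & eplerenone gave 0.87 (SE 0.37, 0.09 to 1.66, adjusted p = 0.19), which missed the threshold.

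Clock genes set 3 livers apart, and these include the 2 with the highest Cyp7a1. Dbp, a clock output factor known to drive Cyp7a1, was at 182 to 257 FPM in cirrhosis replicate 4 and cirrhosis & eplerenone replicates 1 and 2, and at 2.35 to 33.7 FPM in the other 11 livers. Arntl, whose rhythm runs opposite to that of Dbp, was at 0.971 to 4.57 FPM in these 3 and at 10.2 to 37.5 FPM in the others. Cyp7a1 was at 92.6 FPM in cirrhosis replicate 4, inside its group's range and below the group's median of 97.5 FPM. Of 14 clock genes tested for cirrhosis vs control, 1 was called, Clock, at a log2FC of -0.86 (SE 0.23, adjusted p = 0.0213), beside 20.6% of protein coding genes. That call was lost without cirrhosis replicate 1, 3 or 4 or control replicate 5, and the count ran from 0 to 3 with 1 liver left out. With the 3 livers left out, an alternative added after seeing the data, the Cyp7a1 log2FC was 0.54 for cirrhosis vs control, -0.21 for cirrhosis & eplerenone vs cirrhosis and 0.33 for cirrhosis & eplerenone vs control, none of them called. The hour at which livers were taken is not given in the sources used here, and the part of the clock in these values was not tested.

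**Figure D2:**
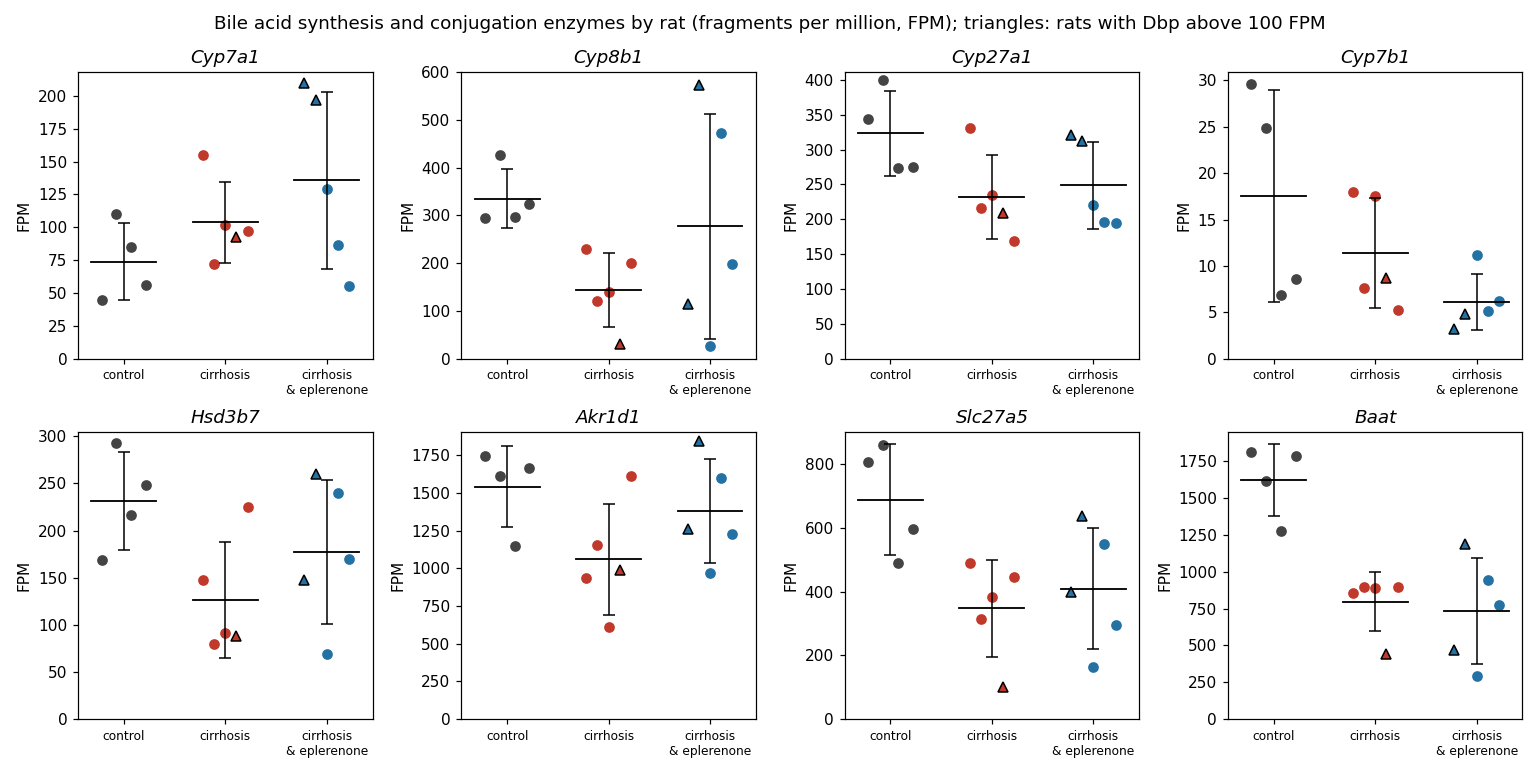
Level of each enzyme (y axes, FPM, each from 0) in every liver, by group, with points in replicate order, the line at the mean and the bar 1 SD to each side. Triangles are the 3 livers with Dbp above 100 FPM. Control and cirrhosis do not overlap for Cyp8b1 and Baat, and Cyp8b1 spreads from 26.3 to 573 FPM in cirrhosis & eplerenone.

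Cyp8b1 (ENSRNOG00000019481, chromosome 8), the cholic acid enzyme, varied more between cirrhosis & eplerenone livers than any other of the 8, with an SD of 84.8% of its mean there against 18.5% in control. Its level was 294, 426, 296 and 324 FPM in control, 229, 121, 139, 30.0 and 200 FPM in cirrhosis, and 115, 573, 26.3, 472 and 198 FPM in cirrhosis & eplerenone. All 5 cirrhosis livers lay below all 4 control livers, and the eplerenone livers fell on both sides of the control range. The log2FC for cirrhosis vs control was -1.22 (SE 0.65, 95% interval -2.60 to 0.15, adjusted p = 0.179) and did not pass the test. For cirrhosis & eplerenone it was 0.95 vs cirrhosis (SE 0.62, -0.36 to 2.26, adjusted p = 0.448) and -0.28 vs control (SE 0.65, -1.65 to 1.10, adjusted p = 0.868). The intervals allow for a rise or a fall in each of the comparisons.

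Hsd3b7 (ENSRNOG00000019080, chromosome 1), the dehydrogenase that follows Cyp7a1, was at 169, 293, 216 and 248 FPM in control and at 147, 79.4, 91.6, 87.7 and 225 FPM in cirrhosis. In cirrhosis & eplerenone it was at 148, 260, 69.5, 240 and 170 FPM. Of the cirrhosis livers, 4 lay below every control, and replicate 5 lay within the control range. The log2FC was -0.88 (SE 0.36, 95% interval -1.65 to -0.11, adjusted p = 0.0931) for cirrhosis vs control, 0.49 (SE 0.34, -0.24 to 1.23, adjusted p = 0.477) for cirrhosis & eplerenone vs cirrhosis and -0.39 (SE 0.36, adjusted p = 0.623) against control. Hsd3b7 was called for cirrhosis vs control without cirrhosis replicate 5 (log2FC -1.19, adjusted p = 0.0178) or without cirrhosis & eplerenone replicate 3 (-0.86, adjusted p = 0.0497), and its adjusted p ran from 0.0178 to 0.208 over the 14 fits that each left out 1 liver.

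Akr1d1 (ENSRNOG00000013004, chromosome 4), the reductase that shapes the ring system, was at 1743, 1610, 1148 and 1668 FPM in control and 935, 1152, 608, 989 and 1614 FPM in cirrhosis. In cirrhosis & eplerenone it was at 1258, 1842, 968, 1602 and 1225 FPM. Again cirrhosis replicate 5 was the liver closest to control, and all groups overlapped. The log2FC was -0.54 (SE 0.27, 95% interval -1.12 to 0.04, adjusted p = 0.159) for cirrhosis vs control, 0.38 (SE 0.26, -0.17 to 0.93, adjusted p = 0.465) for cirrhosis & eplerenone vs cirrhosis and -0.16 (SE 0.27, adjusted p = 0.811) against control. Akr1d1 was called for cirrhosis vs control without cirrhosis replicate 5 (adjusted p = 0.0405). In that liver the cholangiocyte marker sum was 47.8 FPM, the lowest of its group, and the hepatocyte marker sum was 207000 FPM, the highest of its group. Cyp27a1 at 169 FPM and Cyp7b1 at 5.24 FPM were the lowest of the cirrhosis group in the same liver. The part of the cell types in these values was not tested.

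Cyp27a1 (ENSRNOG00000017188, chromosome 9), which opens the alternative pathway, was at 344, 400, 274 and 275 FPM in control, 331, 217, 235, 209 and 169 FPM in cirrhosis and 321, 312, 220, 196 and 195 FPM in cirrhosis & eplerenone. The groups overlapped, and replicate 1 was the one cirrhosis liver inside the control range. The log2FC was -0.48 (SE 0.23, 95% interval -0.97 to 0.01, adjusted p = 0.143) for cirrhosis vs control, 0.10 (SE 0.22, -0.36 to 0.56, adjusted p = 0.83) for cirrhosis & eplerenone vs cirrhosis and -0.38 (SE 0.23, -0.87 to 0.11, adjusted p = 0.387) against control.

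Cyp7b1 (ENSRNOG00000009730, chromosome 2), which acts on the products of Cyp27a1, already varied 29.6, 24.9, 6.90 and 8.65 FPM among the controls. It was at 18.0, 7.67, 17.5, 8.67 and 5.24 FPM in cirrhosis and at 3.22, 4.88, 11.2, 5.14 and 6.28 FPM in cirrhosis & eplerenone. In cirrhosis & eplerenone 4 of 5 livers lay below the lowest control, and the groups overlapped through replicate 3. The log2FC was -0.62 (SE 0.48, 95% interval -1.63 to 0.39, adjusted p = 0.349) for cirrhosis vs control and -0.89 (SE 0.46, -1.86 to 0.09, adjusted p = 0.367) for cirrhosis & eplerenone vs cirrhosis. Against control, cirrhosis & eplerenone gave -1.50 (SE 0.48, -2.53 to -0.48), with an adjusted p of 0.0833 in edgeR and 0.0271 in DESeq2, so 1 tool of the 2 called it. Without the 3 livers with high Dbp this log2FC was -1.17 (adjusted p = 0.24).

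Slc27a5 (ENSRNOG00000019626, chromosome 1), the bile acid coenzyme A ligase, was at 807, 861, 490 and 597 FPM in control and 491, 315, 384, 101 and 446 FPM in cirrhosis. In cirrhosis & eplerenone it was at 400, 638, 165, 551 and 295 FPM. Cirrhosis replicate 1, at 491 FPM, and the control at 490 FPM were all that made those groups overlap. The log2FC was -0.99 (SE 0.41, 95% interval -1.87 to -0.11, adjusted p = 0.097) for cirrhosis vs control, 0.24 (SE 0.39, -0.59 to 1.07, adjusted p = 0.772) for cirrhosis & eplerenone vs cirrhosis and -0.75 (SE 0.41, -1.63 to 0.13, adjusted p = 0.332) against control.

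Baat (ENSRNOG00000007395, chromosome 5), the conjugating transferase, fell in cirrhosis to 0.49 of the control level. It was at 1815, 1614, 1280 and 1788 FPM in control (1625 ± 246 FPM, SD, n = 4) and at 856, 897, 889, 439 and 899 FPM in cirrhosis (796 ± 200 FPM, SD, n = 5). In cirrhosis & eplerenone it was at 470, 1188, 293, 947 and 775 FPM (735 ± 360 FPM, SD, n = 5). All 10 livers of CCl4-treated rats lay below all 4 controls, and 4 of the cirrhosis livers lay within 856 to 899 FPM. The log2FC for cirrhosis vs control was -1.03 (SE 0.34, 95% interval -1.76 to -0.30), with an adjusted p of 0.046 in edgeR and 0.0164 in DESeq2. This call was close to the threshold. With 1 liver left out it remained in 4 of 14 fits (without cirrhosis replicate 5 or cirrhosis & eplerenone replicate 1, 2 or 3) and was lost without any other single liver, while the log2FC stayed between -1.13 and -0.86 and the adjusted p ran from 0.0181 to 0.108. Without the 3 livers with high Dbp it was -0.86 (adjusted p = 0.0699).

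Baat did not differ detectably between cirrhosis & eplerenone and cirrhosis, at a log2FC of -0.12 (SE 0.32, 95% interval -0.80 to 0.57, adjusted p = 0.87). Against control, cirrhosis & eplerenone gave -1.14 (SE 0.34, -1.87 to -0.42), with an adjusted p of 0.0662 in edgeR and 0.0124 in DESeq2. Without cirrhosis & eplerenone replicate 2 this comparison was called, at -1.39 (adjusted p = 0.0215), and without the 3 livers with high Dbp at -1.25 (adjusted p = 0.036).

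**Figure D3:**
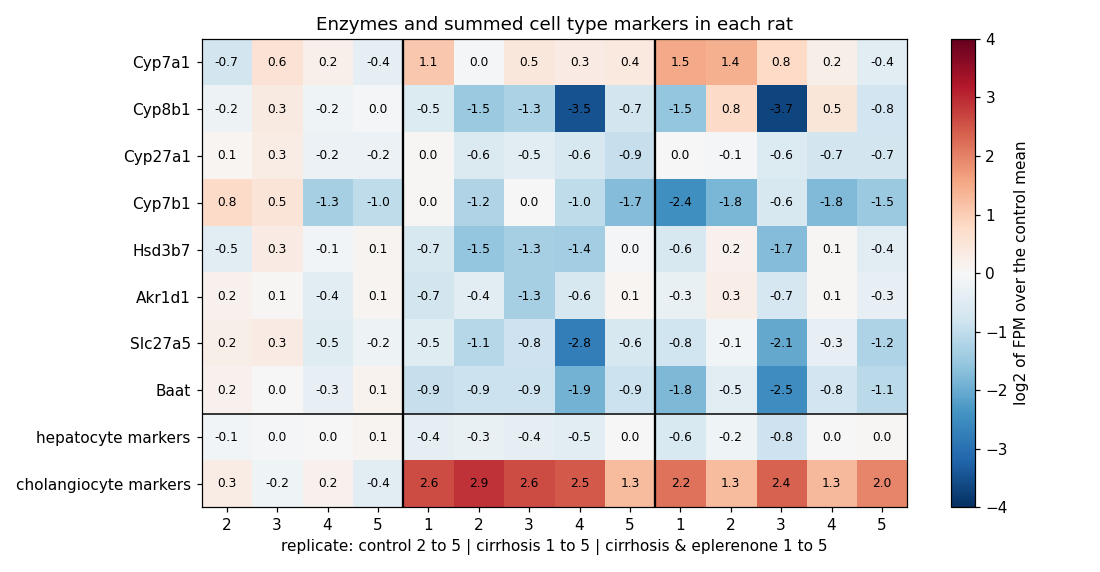
Log2 of the level in each liver over the control mean (colour and printed value) for the 8 enzymes and, under the line, for summed hepatocyte and cholangiocyte markers. Columns are livers by group and replicate. Cirrhosis replicate 4 and cirrhosis & eplerenone replicate 3 are the darkest blue in Cyp8b1, Slc27a5 and Baat, and not in Cyp7a1.

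The enzymes did not move as 1 block between livers. Cirrhosis replicate 4 and cirrhosis & eplerenone replicate 3 were the lowest of their groups in Cyp8b1, Slc27a5 and Baat and also in the hepatocyte marker sum, at 149339 and 116691 FPM. These livers had the highest TMM factors of their groups, 1.21 and 1.4, which lower their FPM. Their raw counts of these enzymes were also the lowest of their groups. The order of the marker sums under another scaling was not tested. In the same livers Cyp7a1 was at 92.6 and 129 FPM, above the control mean of 74.1 FPM. On standardised log2 levels over the 14 livers, the member most like Cyp8b1 was Slc27a5, at a root mean square difference of 0.415 SD, and the member most like Baat was Cyp8b1, at 0.547 SD. Cyp7a1 lay farthest from the rest, with Cyp27a1 as its nearest member at 1.21 SD. Among 12791 other genes with a mean of at least 1 FPM, the nearest were Ndrg2 and Abcb11 for Cyp8b1 (0.291 and 0.305 SD), Apoh and AABR07027750.1 for Baat (0.259 and 0.266 SD), and Oat and Got2 for Slc27a5 (0.302 and 0.307 SD). They were Hadh and Slc13a4 for Hsd3b7 (0.275 and 0.312 SD), Tapt1 and Ugdh for Akr1d1 (0.299 and 0.324 SD), Slc16a11 and Il33 for Cyp27a1 (0.493 and 0.496 SD), and Plgrkt and Fam241b for Cyp7b1 (0.532 and 0.564 SD). For Cyp7a1 they were Ccn3 and Gadd45b, at 0.63 and 0.636 SD, the least close of these pairs. All these distances describe likeness across the 14 libraries and carry no test.

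Ratios of counts within a library do not depend on how libraries are scaled. They set the reads of 1 enzyme beside those of another and do not measure the balance of the pathway. Cyp8b1 reads per Cyp7a1 read numbered 6.54, 3.86, 3.49 and 5.78 in control, 1.48, 1.68, 1.37, 0.324 and 2.05 in cirrhosis, and 0.548, 2.91, 0.204, 5.44 and 3.56 in cirrhosis & eplerenone. Every cirrhosis liver was below every control, and cirrhosis & eplerenone livers spanned both ranges. Cyp7a1 reads per Cyp27a1 read numbered 0.13, 0.276, 0.31 and 0.204 in control and 0.468, 0.333, 0.433, 0.443 and 0.576 in cirrhosis. In cirrhosis & eplerenone they numbered 0.655, 0.631, 0.585, 0.442 and 0.285. Here every cirrhosis liver was above every control, and the eplerenone group overlapped with both. Cyp7b1 reads per Cyp27a1 read spanned 0.0252 to 0.086 among controls, 0.0309 to 0.0744 for cirrhosis and 0.01 to 0.0509 for cirrhosis & eplerenone, all overlapping. Cyp8b1 reads per Hsd3b7 read spanned 1.31 to 1.74, 0.342 to 1.56 and 0.379 to 2.2, and Cyp8b1 reads per Akr1d1 read 0.169 to 0.265, 0.0303 to 0.245 and 0.0272 to 0.311 in the same order. In both of these ratios control and cirrhosis overlapped, so the separation seen against Cyp7a1 was not shared by these partners. These pairs were chosen with the single values in view and carry no test, and the ratios reflect gene length as well as level.

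**Figure D4:**
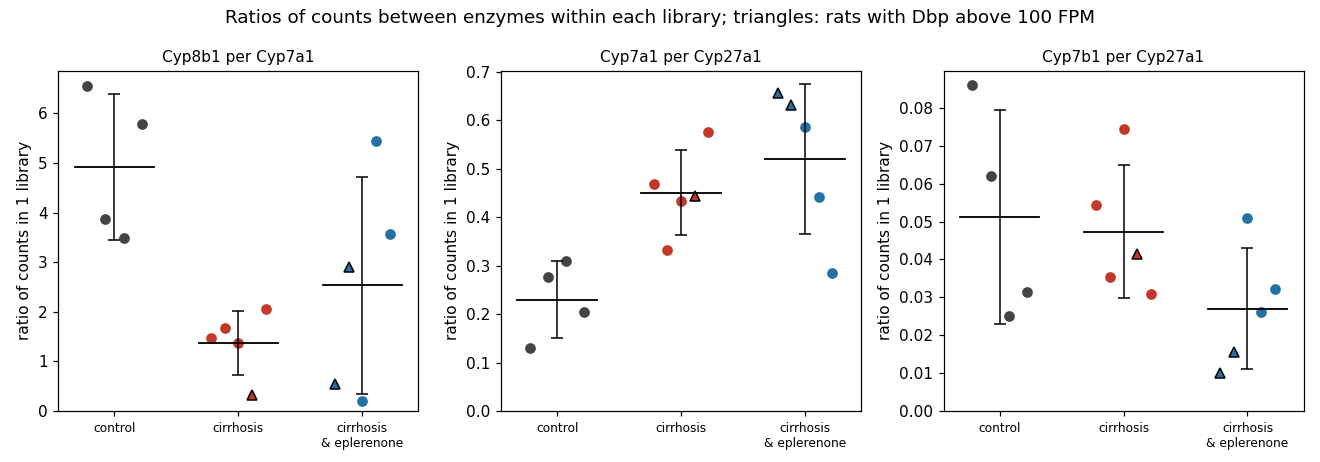
Ratio of counts between 2 enzymes within each library (y axes, from 0) by group, with points in replicate order, the line at the mean and the bar 1 SD to each side. Triangles are the 3 livers with Dbp above 100 FPM. Control and cirrhosis do not overlap in Cyp8b1 per Cyp7a1 (3.49 to 6.54 and 0.324 to 2.05) or in Cyp7a1 per Cyp27a1 (0.13 to 0.31 and 0.333 to 0.576).

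The treated rats carry label prefixes 15 and 20, whose meaning is not given in the sources used here, and the controls carry 13 and 16, so prefix and CCl4 treatment cannot be told apart. Between cirrhosis & eplerenone and cirrhosis the prefixes could be compared, with 2 and 3 livers under prefix 15 and 3 and 2 under prefix 20. The mean log2 difference, eplerenone minus cirrhosis, was 0.96 under prefix 15 and -0.16 under prefix 20 for Cyp7a1, and -1.76 and 0.08 for Cyp7b1. For Hsd3b7 it was 0.94 and 0.01, and for Akr1d1 0.81 and -0.03. Both cirrhosis & eplerenone livers under prefix 15 were livers with high Dbp. Fits without the livers with high Dbp thus kept only prefix 20 in that group, beside 3 cirrhosis livers under prefix 15. In those fits prefix, high Dbp and eplerenone cannot be told apart. Cyp8b1 (0.71 and 0.80), Slc27a5 (0.37 and 0.49), Cyp27a1 (0.30 and 0.11) and Baat (-0.24 and -0.07) had the same sign under both prefixes.

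The promoters of Cyp8b1 and Baat are shown, picked with the results in view. They carry short matches to motifs of liver factors on the regulator list. These were the 2 enzymes whose cirrhosis and control values did not overlap, against 20.5% of protein coding genes, and Cyp8b1 was not called. RefSeq start sites of build GRCr8 were at hand for 5 of the 8 genes, and the 250 bases before each start were searched on both strands. In capitals are CAAGGTC and CAAGGGC, which overlap no other motif searched, in Cyp8b1 (chr8:130457593-130457842, minus strand, matches 89 to 83 and 82 to 76 bases before the start) and CAAAGTCCA in Baat (chr5:68656138-68656387, minus strand, match 90 to 82 bases before the start).
Cyp8b1: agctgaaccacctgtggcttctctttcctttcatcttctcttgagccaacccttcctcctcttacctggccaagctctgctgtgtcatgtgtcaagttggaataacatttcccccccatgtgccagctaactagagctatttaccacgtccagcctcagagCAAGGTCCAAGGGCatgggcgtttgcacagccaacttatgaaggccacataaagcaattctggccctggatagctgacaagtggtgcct
Baat: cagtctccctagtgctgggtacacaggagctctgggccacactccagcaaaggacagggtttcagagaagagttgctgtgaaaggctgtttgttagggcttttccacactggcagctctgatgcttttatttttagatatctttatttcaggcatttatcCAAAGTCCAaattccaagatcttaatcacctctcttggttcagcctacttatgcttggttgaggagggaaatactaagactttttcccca
The first fit CAAGGNC, the core of the LRH-1 (gene Nr5a2) motif, found in 15.8% of 33469 promoters of this length, and the last is an HNF4 (gene Hnf4a) element, found in 0.338% of them. CAAGGNC was also present in Cyp27a1 (not shown), on the opposite strand, and neither motif in Hsd3b7 or Slc27a5. Nr5a2 itself was not called for cirrhosis vs control (log2FC -0.47, SE 0.23, adjusted p = 0.148), and Hnf4a is given below. The HNF1 site letters GTTAAT (6.45% of promoters) and the TATA box letters TATAAA (12.9%) were in none of the 5. A match is a string of letters and no proof of binding.

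Among regulators of the pathway, 4 of 12 tested were lower in cirrhosis than in control and none was higher, beside the background of 20.6%. Nr1i3 (CAR) was at 51.8 to 139 FPM in control and 14.5 to 58.9 FPM in cirrhosis, with a log2FC of -1.51 (SE 0.37, adjusted p = 0.0124). Prox1, a corepressor of Cyp7a1, had a log2FC of -1.49 (SE 0.48, adjusted p = 0.0423), Nr1i2 (PXR) -0.82 (SE 0.20, adjusted p = 0.0113) and Hnf4a -0.81 (SE 0.24, adjusted p = 0.029). The FXR gene Nr1h4 was just outside, at -0.75 (SE 0.26, adjusted p = 0.0518), and Nr0b2 was at 0.42 (SE 0.72, adjusted p = 0.687). The median of the list was -0.61. With 1 liver left out 2 to 7 were called lower. Nr1i2 and Nr1i3 were called in all 14 of these fits, Hnf4a in 9 and Prox1 in 7. The lowest count, 2, came without cirrhosis replicate 3 or 4 or control replicate 3, 4 or 5, and the highest, 7, without cirrhosis replicate 5. Gpbar1, too low to be tested otherwise, was called higher in the fits that lacked a control. With libraries scaled to total counts only Nr1i3 was called, and without the 3 livers with high Dbp only Nr1i2 and Nr1i3. No regulator was called in cirrhosis & eplerenone against either group.

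The peroxisomal enzymes that shorten the bile acid side chain, the step between hydroxylation and conjugation, were lower in cirrhosis for 5 of 7 members, with none higher and a list median of -0.93, beside the background of 20.6%. Amacr, the racemase of this step, was at 450 to 636 FPM in control and 87.3 to 280 FPM in cirrhosis, a log2FC of -1.70 (SE 0.56, adjusted p = 0.0435). Acox2, the bile acid oxidase, had -1.26 (SE 0.29, adjusted p = 0.00955), Slc27a2, an acyl-CoA synthetase, -0.99 (SE 0.25, adjusted p = 0.0142) and Hsd17b4, the bifunctional enzyme, -0.93 (SE 0.27, adjusted p = 0.0258). The fifth was Abcd3, a peroxisomal transporter, at -0.88. The count was 5 with total-count scaling and without the 3 livers with high Dbp, and 2 (without control replicate 5) to 6 (without cirrhosis & eplerenone replicate 3) with 1 liver left out. It was 3 without control replicate 2 or 4 or cirrhosis replicate 1, 3 or 4. Acox2 and Slc27a2 were called in all 14 of these fits, Abcd3 in 13, Hsd17b4 in 8 and Amacr in 4. None of the 7 was called in cirrhosis & eplerenone against cirrhosis (list median 0.41) or control (-0.53). The study followed up Amacr and the transporter gene Abcc2 from these libraries, so they are not independent evidence. By qPCR in a larger set of its rats it reported both lower in cirrhosis and higher again with eplerenone. It also measured both in hepatocytes under hypoxia. Here the log2FC for cirrhosis & eplerenone vs cirrhosis was 1.28 for Amacr (SE 0.53, adjusted p = 0.316) and 1.26 for Abcc2 (SE 0.47, adjusted p = 0.314), neither called. In that comparison 6 side chain genes were above 0 and 1 below, and 5 transporters above and 2 below.

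Of 9 other sterol hydroxylases and electron donors, 2 rose and 2 fell in cirrhosis, beside the background of 20.6%. With 1 liver left out 2 to 4 were called, and 2 whenever a control was left out. Ch25h and Akr1c14 were called in all 14 of these fits, Fdx1 in 9 and Cyp2c22 in 3. Ch25h, which makes an oxysterol that immune cells also produce, was at 0.231 to 0.549 FPM in control, a few reads per library, and at 1.79 to 10.9 FPM in cirrhosis, a log2FC of 3.75 (SE 0.88, adjusted p = 0.0103). Markers of immune cells moved with it. Cd3e was higher by 2.99, Cd3d by 2.68 and Ptprc by 1.01 (log2FC), and Cd163 was at -1.22. Their part in the Ch25h value was not tested. Cyp2c22 rose with a log2FC of 0.72 (SE 0.24, adjusted p = 0.0464) and Akr1c14, a hydroxysteroid dehydrogenase, fell with -1.02 (SE 0.24, adjusted p = 0.011). Both belong to families of close copies and multi-mapping reads were included, so their values are uncertain. Fdx1, the electron donor of Cyp27a1, fell with -0.59 (SE 0.19, adjusted p = 0.0364) in cirrhosis and was the 1 gene of the list called in cirrhosis & eplerenone vs control, at -0.97 (SE 0.19, adjusted p = 0.00997), in all 14 fits with 1 liver left out. Fdx1 levels were 71.5 to 103 FPM for control, 39.0 to 65.7 FPM for cirrhosis and 33.0 to 55.2 FPM for cirrhosis & eplerenone, and both treated groups lay below every control. With total-count scaling, and without the 3 livers with high Dbp, Fdx1 was not among the genes called for cirrhosis vs control.

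Of 7 bile acid transporters tested, 3 fell and 1 rose in cirrhosis, beside the background of 20.6%. With 1 liver left out 2 to 4 were called. Slco1b2 and Abcc3 were called in all 14 of these fits, Abcc2 in 7 and Slc10a1 in 6, and both of the latter were lost without cirrhosis replicate 1, 2 or 3 or any control. With total-count scaling Abcc2 was not called. The uptake carriers Slco1b2 and Slc10a1 had log2FC of -1.53 (SE 0.39, adjusted p = 0.0153) and -1.27 (SE 0.40, adjusted p = 0.0364), and the canalicular exporter Abcc2 had -1.59 (SE 0.49, adjusted p = 0.0344). Abcc3, an exporter to the blood side, rose: its level was 1.78 to 3.36 FPM in control and 6.84 to 59.3 FPM in cirrhosis, a log2FC of 3.13 (SE 0.69, adjusted p = 0.00763), and was also called in cirrhosis & eplerenone vs control at 2.57 (SE 0.68, adjusted p = 0.0399), beside 5.33% of protein coding genes. This call was lost in 8 of the 14 fits with 1 liver left out, those without any 1 control, cirrhosis replicate 2 or cirrhosis & eplerenone replicate 1, 3 or 5. Abcb11, the bile salt export pump and one of the genes nearest to Cyp8b1, was at -0.59 (SE 0.30, adjusted p = 0.162) and was not called. No transporter was called between cirrhosis & eplerenone and cirrhosis.

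**Figure D5:**
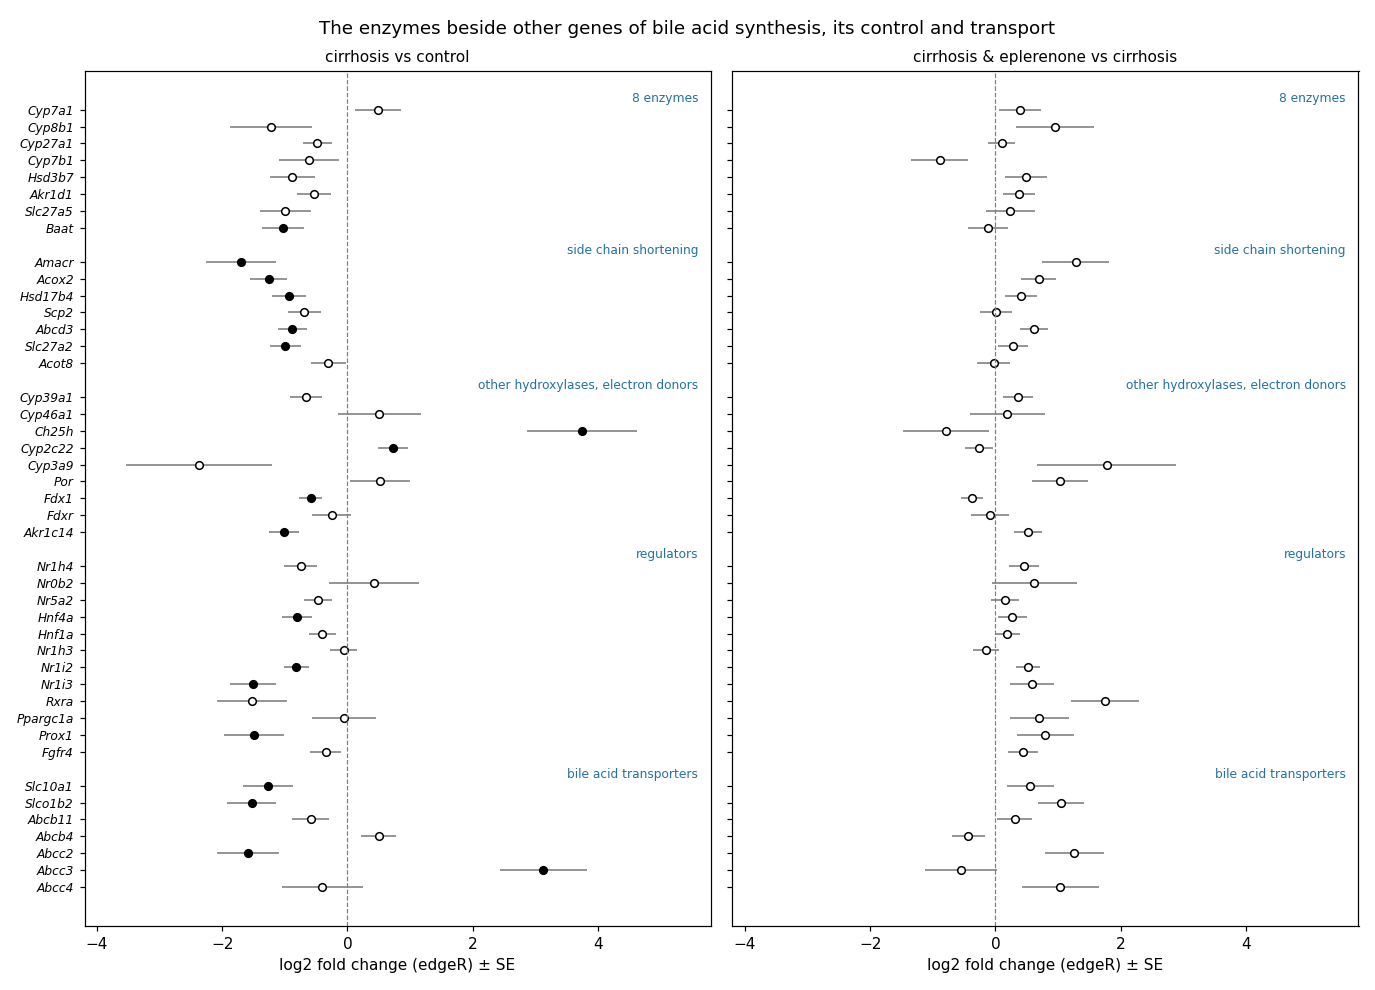
Log2 fold change (x axes, edgeR, bars 1 SE to each side) of the 8 enzymes and of the tested genes of 4 related lists, in cirrhosis vs control on the left and cirrhosis & eplerenone vs cirrhosis on the right. Filled points were called by both tools. On the left Baat is the 1 filled enzyme beside 5 filled side chain genes, and on the right no point is filled.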

How the data were processed

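Liver RNA was sequenced by the authors after poly(A) selection with paired reads of 150 bp. Per the submitters' notes and methods, reads were mapped to rn6 with HISAT2 2.1.0 and counted over exons with featureCounts 2.0.0, multi-mapping reads included, and genes were named from Ensembl archive 101. Use of strand is not given in the sources used here. The deposited values are raw counts per gene, with no normalization, for 32623 genes and 14 libraries, of which 11341 genes had no count in any library. No 2 libraries were identical.

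Libraries were grouped by the treatment label. Counts were filtered with filterByExpr (minimum count 10), which kept 14417 genes, 13628 of them protein coding. The 3 groups were fitted in 1 model in R 4.3.3 with edgeR 4.0.16 (TMM, quasi-likelihood test) and in 1 with DESeq2 1.42.0 (Wald test), with Benjamini-Hochberg adjustment over all genes tested, and the fit was tested on simulated data. FPM are counts per 1000000 over TMM library sizes, and intervals are 95%.

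All 8 enzymes are reported with every value. Of each other list, counts are given and at most 4 genes are valued, those called in order of absolute log2FC. Abcd3, Nr1h4, Nr0b2, Nr5a2, Gpbar1, Abcb11, Dbp, Arntl and the markers were valued outside this rule, after their values were seen. The 2 nearest genes to each enzyme are named by the root mean square difference of standardised log2(FPM + 0.5). Members and lists were chosen with earlier results of these data known. Alternatives changed the call rule, scaling, filter, libraries and blocks. Samples are single rats, and p-values weigh a group difference against the spread between rats within groups.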

Additional observations from a re-analysis of the deposited data

Results flagged for a closer look

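In 24 groups of values, 8 enzymes in 3 groups, the lowest or highest liver was compared with the rest of its group by Dixon's test. Baat in cirrhosis replicate 4 stood apart, at 439 FPM with the next liver at 856 FPM, a gap of 0.906 of the group's range against a limit of 0.71 for 5 samples. Chance flags about 1 in 20 groups, and 1 of 24 was flagged here. The same liver had the lowest Cyp8b1, at 30.0 FPM, and the lowest Slc27a5, at 101 FPM, of the cirrhosis group, and Dbp at 182 FPM. Without it Baat was at a log2FC of -0.86 for cirrhosis vs control and was not called (edgeR adjusted p = 0.0949).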

How the results depend on the processing

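Of 584 fold changes of single enzymes over the alternatives, 546 kept their direction and their side of the threshold, 15 lost a call, 13 gained one and 10 changed sign. All 15 lost calls were those of Baat for cirrhosis vs control, the only call of the main fit. The other fold changes had no call to lose, so the 546 say little about how stable that call was. For cirrhosis vs control the number of enzymes called went from 1 to 0 with total-count scaling (Baat -0.76, adjusted p = 0.0505, where the median of all genes was 0.28), with no filter (-1.01, 0.0541), with 10 counts in every sample (-0.97, 0.0526) and without the 3 livers with high Dbp, and ran from 0 to 3 with 1 liver left out. The genes called ran from 1317 (without control replicate 5) to 4415 (without cirrhosis replicate 5). With cirrhosis replicate 5 and cirrhosis & eplerenone replicate 3 left out together, a pair picked with earlier results known, 4 enzymes (Hsd3b7, Akr1d1, Slc27a5 and Baat) and 4634 genes were called, and 1 enzyme (Hsd3b7, 0.99) and 1235 genes for cirrhosis & eplerenone vs cirrhosis, so these counts are no support.

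For cirrhosis & eplerenone vs cirrhosis 67 genes were called by DESeq2 alone and 0 without the 3 livers with high Dbp, and 0 to 25 with 1 liver left out, when the enzymes called stayed at 0. For cirrhosis & eplerenone vs control the enzymes called were 2 with DESeq2 alone, 1 with total counts (Baat -0.92, median of all genes 0.32), 1 without that pair (Cyp7b1 -1.84), 1 without the 3 livers with high Dbp (Baat) and 0 to 1 with 1 liver left out. The genes called, 726 before, were 1476 with DESeq2 alone, 1318 with total counts, 371 with 10 counts in every sample, 1206 without the 3 livers and 208 to 1235 with 1 left out. The cause of these shifts was not tested.

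Signs that changed all belonged to fold changes that were not called. They were, for cirrhosis & eplerenone vs cirrhosis, Cyp7a1 -0.21, Cyp27a1 -0.20 and Slc27a5 -0.27 without the 3 livers, and Baat 0.12 without that pair. With 1 liver left out the range was -0.01 (without eplerenone replicate 1) to 0.25 for Cyp27a1, -0.01 (without cirrhosis replicate 4) to 0.42 for Slc27a5 and -0.36 to 0.07 (without eplerenone replicate 3) for Baat. Against control Cyp8b1 was at 0.02 without that pair and at -0.73 to 0.02 (without eplerenone replicate 3) with 1 liver left out, and Akr1d1 at 0.12 with total counts.

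Replicate numbers did not pair the livers, since same-numbered livers deviated with correlations of -0.333 to 0.187. With the number as a replicate block 0 enzymes and 1688 genes were called for cirrhosis vs control, 0 genes for cirrhosis & eplerenone vs cirrhosis and 260 against control. With 4 or 5 livers a group, the 95% interval for cirrhosis & eplerenone vs cirrhosis ran from -0.36 to 2.26 for Cyp8b1 and from -1.86 to 0.09 for Cyp7b1. The data are compatible with any difference inside these bounds, no difference included.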

Other observations

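Cyp7a1 reads per Cyp7b1 read, which set the entry of the classic pathway beside the second step of the alternative one, ranged from 1.52 to 12.3 among controls (median 5.46), from 5.83 to 18.6 for cirrhosis (median 9.39) and from 8.86 to 65.2 in cirrhosis & eplerenone (median 16.9), with all groups overlapping. Baat reads per Slc27a5 read, the last 2 steps of conjugation, ranged from 1.88 to 2.99 in control, from 1.74 to 4.34 in cirrhosis and from 1.18 to 2.63 in cirrhosis & eplerenone. Both ratios depend on gene length as well as level and carry no test.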
